A study of Oryza sativa Japonica Group with 41 samples.

Results

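Peaks of H3K9ac, the acetylation of lysine 9 of histone H3, were called in both libraries of starved rice seedlings and in neither library of control seedlings in 830 regions of the genome. The regions were built by merging the peaks of 18 seedling libraries wherever they overlapped by at least 1 bp, which gave 38058 regions, and the 830 dark-gained regions were 2.18% of them. Of the 15101 regions without an H3K9ac peak in either control library, 614 others had a peak in 1 of the 2 starved libraries only. Leaves of 12-day-old seedlings of the cultivar DongJin were sampled after 48 h of continuous darkness, called starvation, after 6 h under water, called submergence, or without treatment, called control. All 3 groups were grown on half-strength Murashige and Skoog medium with 16 h of light a day, and the label of each gives the clock time as ZT12, that is 12 h after zeitgeber time 0. Chromatin was precipitated with antibodies against H3K9ac, butyryllysine (Kbu) or crotonyllysine (Kcr), with 2 libraries for each mark and condition. A further 8 H3K9ac libraries came from leaves of untreated 30-day-old DongJin plants at ZT0, ZT6, ZT12 and ZT18, with 2 at each time.

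Acetylation of H3K9 is laid down near the 5′ end of transcribed genes, where acetyl groups loosen the hold of the histone tail on DNA and are read by proteins that promote transcription. Butyryl and crotonyl groups are longer acyl groups on histone lysines. They are attached from butyryl-CoA and crotonyl-CoA as acetyl groups are from acetyl-CoA, so that the supply of carbon from metabolism can reach the chromatin by all 3 routes. Prolonged darkness stops photosynthesis and depletes sugars in leaves, and submergence limits oxygen and shifts the tissue toward fermentation.

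Each library gave a list of peaks with the tags, the aligned reads, that the caller MACS counted in each. MACS used 5631625 and 6480371 tags in the starved H3K9ac libraries and 10581295 and 11985500 tags in the control H3K9ac libraries. The Kbu libraries had between 13331766 and 17291342 tags, the Kcr libraries between 14833976 and 19269402, and the leaf libraries between 5914314 and 16232431, with ZT18 replicate 2 the lowest. A region without a listed peak has no value in these data, since reads outside peaks are not part of the lists. MACS judged each peak against the surrounding sequence of the same library, and its smallest listed peak in control H3K9ac held 31 tags in replicate 1 and 41 in replicate 2. A gained peak is therefore a change of call, and how far it is a change in the amount of H3K9ac was not tested. The labels name no sequencing batch and do not say that the replicates came from separate cultures, so the p values measure only the spread between these libraries.

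The gained H3K9ac peaks were mostly small. The dark-gained regions had a median of 49 tags in starved replicate 1 and 56 in starved replicate 2, with ranges of 19 to 661 and 23 to 760. Scaled to RPM, the tags of a region for each 1000000 tags that MACS used in the library, the medians were 8.70 and 8.64, and the 19025 regions with an H3K9ac peak in both starved and both control libraries had 18.8 in each replicate. The called peaks were 947.5 and 1006 bp long at the median in the dark-gained regions, against 1233 and 1289 bp in the regions with H3K9ac in all 4 libraries. Their median enrichment over the local background was 5.67-fold and 5.475-fold, against 8.64-fold and 8.43-fold. The regions were chosen by the H3K9ac peak calls of the starved and control libraries, so these values are given as a description, with no test. The summits of the 2 starved replicates lay 29 bp apart at the median in the dark-gained regions and 26 bp apart in the regions with H3K9ac in all 4 libraries.

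**Figure D1:**
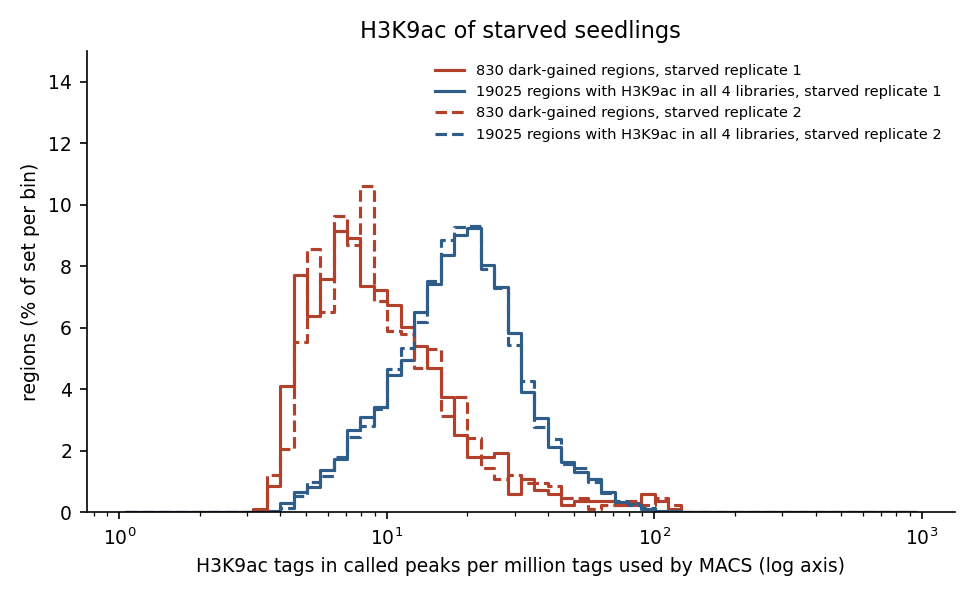
Distribution of H3K9ac tags in called peaks of the 2 starved libraries, in RPM on a log axis, for the 830 dark-gained regions and for the 19025 regions with an H3K9ac peak in both starved and both control libraries, as percent of each set per bin. The dark-gained regions centre on 8.70 and 8.64 RPM in replicates 1 and 2, and the other set on 18.8 in both.

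The MACS score, 10 times −log10 of the peak's p, shows how close to the caller's limit of 50 the gained peaks lay. In the weaker of the 2 starved libraries the score ran between 50.01 and 476, with a median of 73.2, and it was under 60 in 209 of the 830 regions. The 5 regions with the lowest scores, from 50.01 to 50.08, carried Kbu and Kcr peaks in both control libraries of each mark. Among them the region on chromosome 8 from 24494722 to 24496160 had 31 H3K9ac tags in each starved replicate. Just outside the rule, the 614 regions with a peak in only 1 starved library had a median score of 58.2 in that library. A further 478 regions had a peak in both starved and in 1 control library, with a median score of 66.8 for the control peak. Leaving a library out of the rule changed the number of dark-gained regions to 1187 without starved replicate 1, 1087 without starved replicate 2, 1037 without control replicate 1 and 1101 without control replicate 2.

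Median scores in starved replicates 1 and 2 were 80.8 and 82.9 in the 368 dark-gained regions with Kbu and Kcr in both control libraries. They were 81.3 and 87.7 in the 280 without any control Kbu or Kcr peak. The 5 regions with the highest scores in the weaker starved library carried Kbu and Kcr peaks in both control libraries of each mark. These 5 were picked after their values were seen. The highest was a 3361 bp region on chromosome 1 (40812190 to 40815550), with 501 and 527 H3K9ac tags in the starved replicates and scores of 550 and 476. It had no H3K9ac peak in either submerged library, and its Kbu tags were 543 and 526 in starved, 368 and 402 in submerged and 546 and 528 in control seedlings. The next was a 2933 bp region on chromosome 1 (12090859 to 12093791), with 190 and 205 H3K9ac tags in the starved replicates and 138 and 150 in the submerged ones. The first region thus had H3K9ac peaks in darkness only among the seedlings with Kbu tags that overlapped between starved and control libraries, and the second also had higher Kbu and Kcr in darkness. The other 3 lay on chromosome 1 (8081987 to 8087373), chromosome 5 (1659476 to 1666065) and chromosome 3 (8575129 to 8579888), and all 3 had H3K9ac peaks in both submerged libraries too.

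The 10 dark-gained regions with the highest H3K9ac RPM were broad domains of between 5460 and 9200 bp. The largest value was in a 7598 bp region on chromosome 1 (31406831 to 31414428), with 661 and 743 tags in the starved replicates and 1133 and 1390 in the submerged replicates. In leaves it had 1127 and 1878 tags at ZT0, 2205 tags and no listed peak at ZT6, 1838 and 1939 at ZT12, and 2106 and 809 at ZT18. Its control Kbu was 1236 tags in replicate 2 with no listed peak in replicate 1. Calls that differ between replicates beside more than 1000 tags in the partner library also occurred on chromosome 7 (24346541 to 24353701), where control Kcr had no listed peak in replicate 1 and 1616 tags in replicate 2. The enrichment over the local background in these 10 regions was between 2.57-fold and 6.49-fold in starved replicate 1. Of all dark-gained regions, 33 were 4000 bp or longer, which is 2.64% of the 1250 regions of that length, and 797 were shorter, which is 2.17% of the 36808 shorter regions.

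The dark-gained regions were spread over all 12 chromosomes. Their share of the regions of a chromosome was lowest on chromosome 2, at 1.56% (64 of 4111), and highest on chromosome 8, at 2.87% (78 of 2717). They lay at a median of 4072 bp from the nearest region with H3K9ac in both control libraries, against 5953 bp for all regions without a control H3K9ac peak. Only 45 dark-gained regions lay within 5000 bp of another one. Runs of 3 neighbouring dark-gained regions, with no other region between them, occurred on chromosome 2 (22549756 to 22560577) and chromosome 10 (2602215 to 2629936).

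Whether the dark-gained regions carried acyl marks before darkness was read from the control Kbu and Kcr libraries, which the choice of regions did not use. Peaks of both Kbu and Kcr, in both replicates of each, were present in 368 regions (44.3%). This compares with 34.0% of the 15101 regions without control H3K9ac and with 98.1% of the 19025 regions with H3K9ac in all 4 libraries. Kbu was present in both control libraries and Kcr in at most 1 in 54 dark-gained regions (6.51%), of which 49 had a Kcr peak in 1 control library and 5 in none. Kcr was present in both and Kbu in at most 1 in 42 (5.06%), of which 31 had a Kbu peak in 1 control library and 11 in none. Neither mark was in both control libraries, with at least 1 peak of either, in 86 (10.4%). No Kbu and no Kcr peak was called in any control library in 280 regions (33.7%), against 28.3% of the regions without control H3K9ac. The share with both marks was 53.6% without control replicate 1 and 47.3% without control replicate 2, since then only 1 library of each mark had to have a peak.

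Where a control Kbu peak was present it was weaker than in regions with standing acetylation. The median control Kbu value was 10.3 and 10.7 RPM in the dark-gained regions with a peak in that library. It was 8.21 and 7.90 in the other regions without control H3K9ac, and 18.9 and 20.7 in the regions with H3K9ac in all 4 libraries. For control Kcr the medians were 9.02 and 9.85 in the dark-gained regions, 6.93 and 7.65 in the other regions without control H3K9ac, and 15.5 and 17.95 in the regions with H3K9ac in all 4 libraries. The dark-gained regions lay between the 2 other sets in both replicates of both marks.

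In darkness, Kbu and Kcr peaks appeared in many dark-gained regions that had lacked them. Kbu peaks were called in both libraries in 573 regions (69.0%) of starved seedlings and 422 regions (50.8%) of control seedlings. Kcr peaks were called in both libraries in 568 regions (68.4%) of starved and 410 regions (49.4%) of control seedlings. Of the 323 dark-gained regions without a control Kbu peak, 85 (26.3%) had Kbu peaks in both starved libraries, beside a background of 7.05% of all 6665 regions without a control Kbu peak. Of the 309 without a control Kcr peak, 74 (23.9%) had Kcr peaks in both starved libraries, beside 7.62% of 5575 regions.

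Loss of an acyl peak in darkness was rare in the dark-gained regions. Of the 422 with Kbu peaks in both control libraries, 2 (0.474%) had none in either starved library. The same loss occurred in 5.66% of all 28652 regions with Kbu in both control libraries and in 21.8% of the 6514 of these that had no control H3K9ac peak. Of the 410 with Kcr peaks in both control libraries, 2 (0.488%) lost them, beside 2.73% of all 28211 such regions and 9.85% of the 6170 without control H3K9ac. Over all regions, 1420 of the 1622 losses of Kbu and 608 of the 770 losses of Kcr were in regions without control H3K9ac. Loss was thus uncommon in regions with control H3K9ac as well. The dark-gained regions were chosen to have H3K9ac peaks in both starved libraries, which the other regions without control H3K9ac lacked in at least 1. Regions are not replicates of a condition, so these shares carry no p value.

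**Figure D2:**
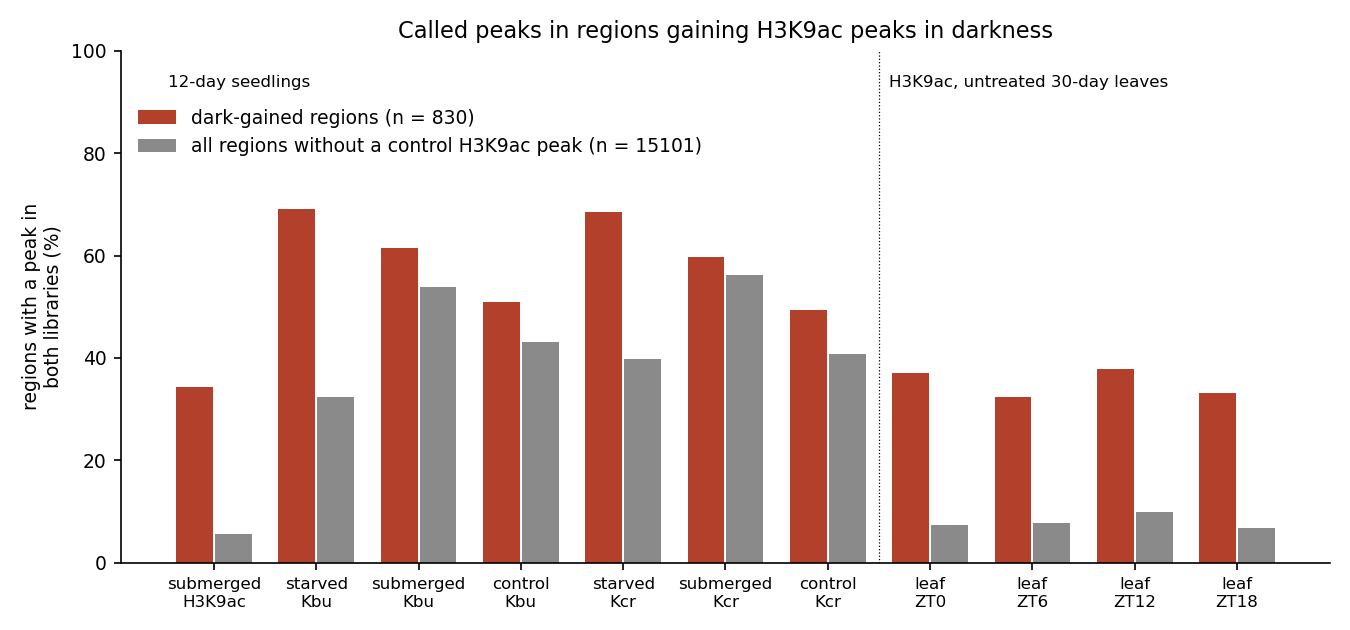
Percent of regions with a called peak in both libraries of a group, for the 830 dark-gained regions and for all 15101 regions without a control H3K9ac peak, which include them. Kbu and Kcr peaks were in 69.0% and 68.4% of the dark-gained regions in starved seedlings, against 50.8% and 49.4% in control seedlings, and H3K9ac peaks were in 34.3% of them under submergence.

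The level of Kbu was compared in the 397 dark-gained regions with a Kbu peak in all 6 Kbu libraries, by the edgeR quasi-likelihood test on tags with Benjamini-Hochberg adjustment over 25338 regions. Kbu rose in starved seedlings in 107 of these regions (27.0%) and fell in 36 (9.07%) at an adjusted p under 0.05. Over all regions tested, 12.5% rose and 16.6% fell. The median log2 difference between starved and control seedlings was 0.14 in the dark-gained regions, beside 0.0040 in all regions. In the 3412 other regions without a control H3K9ac peak the median was −0.35, with 2.75% higher and 37.5% lower, and by construction these lacked an H3K9ac peak in at least 1 starved library. The same-numbered replicates gave medians of 0.12 and 0.16 in the dark-gained regions and −0.37 and −0.29 in those other regions. Kbu was higher in both replicates in 58.2% of the dark-gained regions tested, in 40.8% of all regions tested and in 12.8% of the other regions.

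These counts depended on the number of libraries and on the measure. Leaving out 1 library gave 66 higher and 16 lower regions without control replicate 1, 68 and 35 without control replicate 2, 62 and 20 without starved replicate 1, and 57 and 19 without starved replicate 2, so that higher calls outnumbered lower ones each time. With the tags used by MACS as library sizes, the median of all regions moved to 0.12 and that of the dark-gained regions to 0.26, with 150 higher and 19 lower. DESeq2 called 42 higher and 14 lower. A change of at least 1.5-fold in both same-numbered replicates, in RPM, was upward in 56 dark-gained regions (14.1%) and downward in 5 (1.26%), beside 1.81% and 2.98% of all regions tested.

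**Figure D3:**
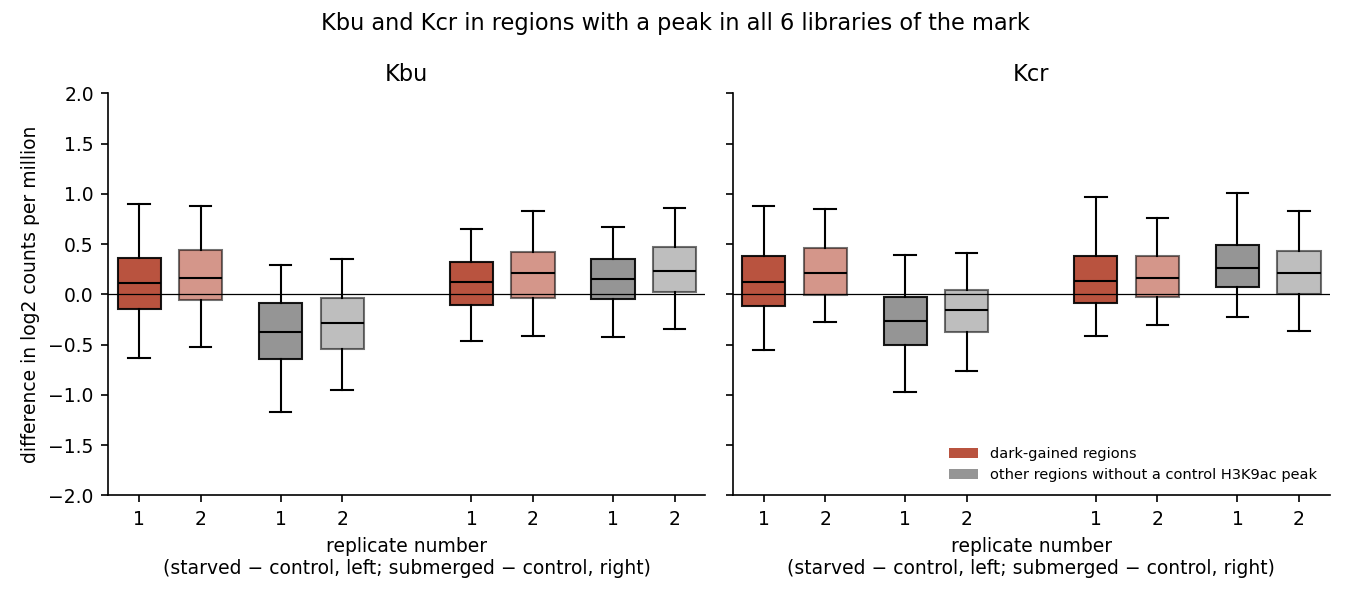
Differences in log2 CPM of Kbu (left) and Kcr (right) between starved and control and between submerged and control seedlings, by replicate number, in regions where each of the 6 libraries of the mark had a listed peak. Boxes span the quartiles with the median as a line and whiskers reach the 5th and 95th percentiles. In darkness the Kbu medians were 0.12 and 0.16 in dark-gained regions and −0.37 and −0.29 in other regions without control H3K9ac, whereas under submergence both sets lay above 0.

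The largest rise of Kbu was in a 2556 bp region on chromosome 4 (22181507 to 22184062). Kbu had 438 and 476 tags there in starved seedlings, 129 and 111 in submerged seedlings and 136 and 136 in control seedlings, a log2 difference of 1.70 ± 0.11 between starved and control (SE, edgeR adjusted p = 4.68e-05). Kcr had 340 and 452 tags in starved seedlings and 85 tags and no listed peak in control seedlings. The starved libraries stood above all other seedling libraries at this region for both marks, and its gained H3K9ac peaks held 89 and 95 tags.

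A 1676 bp region on chromosome 11 (17298248 to 17299923) had 314 and 384 Kbu tags in starved seedlings, 77 and 79 in submerged and 124 and 109 in control seedlings. Its log2 difference was 1.53 ± 0.11 (SE, edgeR adjusted p = 9.52e-05). Kcr moved alike, with 341 and 313 tags in starved, 74 and 76 in submerged and 83 and 131 in control seedlings, a log2 difference of 1.38 ± 0.17 (SE, edgeR adjusted p = 0.0081). H3K9ac had 67 and 66 tags in the starved libraries and no listed peak in the submerged ones. Both acyl marks were thus higher in darkness at this region, and under submergence neither acyl mark had more tags than in its higher control library.

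The region on chromosome 1 from 12090859 to 12093791 had 666 and 847 Kbu tags in starved, 264 and 283 in submerged and 330 and 309 in control seedlings, a log2 difference of 1.19 ± 0.075 (SE, edgeR adjusted p = 4.68e-05). Kcr there had 728 and 788 tags in starved and 165 and 336 in control seedlings, a log2 difference of 1.37 ± 0.18 (SE, edgeR adjusted p = 0.00998). The 2 control Kcr libraries differed from each other more than the starved ones did. The remaining regions among the 5 largest rises of Kbu were on chromosome 1 (26383479 to 26385826) and chromosome 9 (19907244 to 19909649), with log2 differences of 1.26 and 1.23, and neither had a leaf H3K9ac peak at any time. With the called length as an offset their differences were 0.79 and 0.72. With it the Kbu rises on chromosome 11 and on chromosome 1 from 12090859 were 1.05 and 1.09. All 5 rises kept an edgeR adjusted p under 0.05 with the offset.

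**Figure D4:**
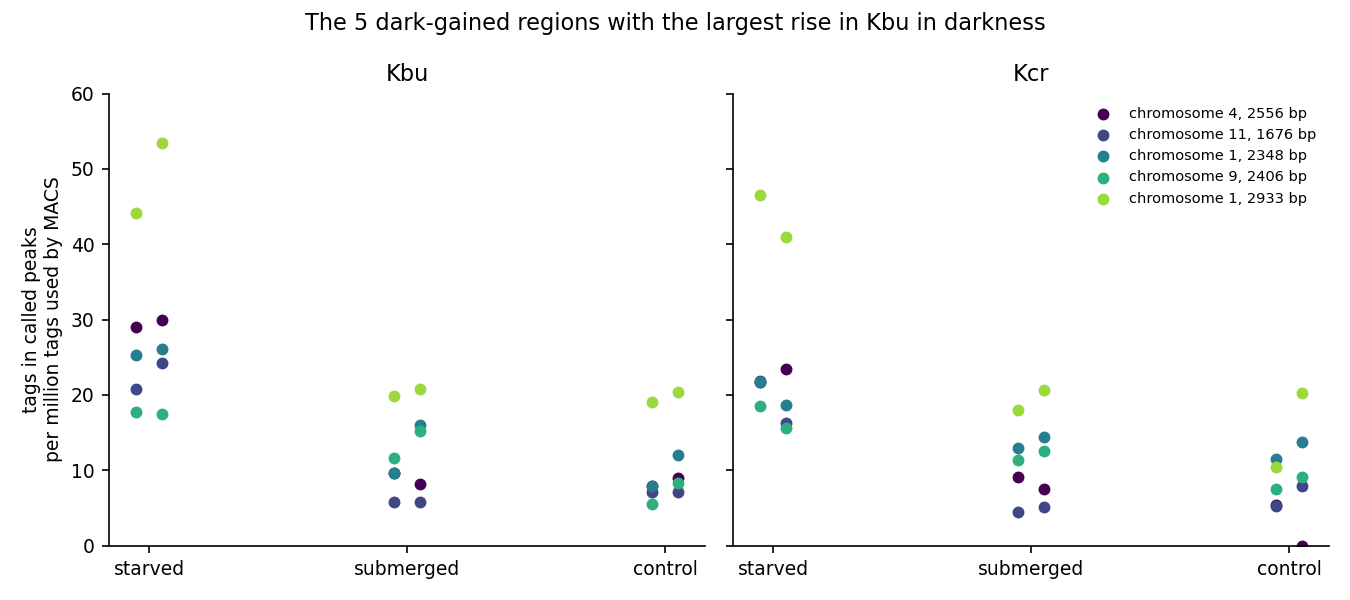
Tags of Kbu (left) and Kcr (right) in called peaks, in RPM, in the 5 dark-gained regions with the largest rise in Kbu, with a point for each of the 2 libraries per group. In all 5 regions both starved Kbu libraries lie above both control libraries, and the point at 0 is a control Kcr library without a listed peak.

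Of the 36 falls of Kbu in darkness, 29 had shorter called Kbu peaks in both starved libraries than in either control library. In the largest, on chromosome 3 (7980451 to 7983346), Kbu had 206 and 127 tags in starved and 392 and 357 in control seedlings, a log2 difference of −1.21 ± 0.31 (SE, edgeR adjusted p = 0.0195). The tags per kb were 85.3 and 102 in starved and 142 and 134 in control seedlings, and with the called length as an offset the difference was −0.62 (edgeR adjusted p = 0.00284). This call was lost with DESeq2 (adjusted p = 0.184), over regions with a peak in at least 2 libraries (0.165), without control replicate 1 (0.071) and without starved replicate 2 (0.122). On chromosome 7 (22361079 to 22365630) Kbu had 333 and 385 tags in starved and 650 and 636 in control seedlings, with called lengths of 1804 and 1728 bp against 3533 and 3444 bp. The tags per kb there were 185 and 223 in starved and 184 and 185 in control seedlings, so the fall was in the covered length, with no lower density within the peak. Among the 5 largest falls, those on chromosomes 6 (23225242 to 23227221), 7 and 8 (28180211 to 28183865) had log2 differences of −0.91, −0.89 and −0.83 on the summed tags. These differences turned to 0.042, 0.088 and 0.19 when the called length entered the fit as an offset. On chromosome 4 (23526853 to 23529538) the difference was −1.06 on the summed tags and −0.14 with the offset (edgeR adjusted p = 0.518). With that offset, 88 dark-gained regions were higher and 10 lower.

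Calls of a Kcr change were fewer than for Kbu, in the dark-gained regions and over all regions tested. In the dark-gained regions they were mostly upward. The spread between libraries, as the common dispersion of edgeR, was 0.0072 in the Kcr fit and 0.0037 in the Kbu fit. The median shift of the dark-gained regions was 0.16 for Kcr and 0.14 for Kbu, so fewer calls do not show a smaller change. Of the 384 dark-gained regions with a Kcr peak in all 6 Kcr libraries, 32 (8.33%) rose and 2 (0.521%) fell in starved seedlings by the edgeR test, beside 1.41% and 2.27% of all 25771 regions tested. The median log2 difference was 0.16, beside 0.0081 in all regions and −0.22 in the 3993 other regions without a control H3K9ac peak, of which 0.601% rose and 3.38% fell. The medians of the same-numbered replicates were 0.12 and 0.21 in the dark-gained regions and −0.26 and −0.16 in the other regions. The number of higher regions was 6 without control replicate 1, 8 without control replicate 2, 5 without starved replicate 1 and 10 without starved replicate 2, and the number of lower regions was 3, 3, 0 and 1 in the same order. Higher Kcr was called in 16 regions with the replicate number as a block, in 20 with DESeq2 and in 14 with the called length as an offset. With the tags used by MACS as library sizes it was called in 60, with the median of all regions at 0.15 and that of the dark-gained regions at 0.31. A change of at least 1.5-fold in both same-numbered replicates was upward in 43 (11.2%) and downward in 1 (0.260%), beside 1.28% and 0.792% of all regions tested.

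Most regions that rose in Kcr also rose in Kbu, in the dark-gained regions and over all regions. In the 344 dark-gained regions tested for both marks, 96 rose in Kbu and 29 in Kcr, and 27 rose in both, which is 28.1% of the regions with a rise in Kbu and 93.1% of those with a rise in Kcr. Over all 24402 regions tested for both marks, 271 rose in both, which is 8.73% of the regions with a rise in Kbu and 76.8% of those with a rise in Kcr. The largest rise of Kcr was in a 6461 bp region on chromosome 12 (275695 to 282155), with 399 and 810 tags in starved and 144 and 166 in control seedlings, a log2 difference of 1.69 ± 0.25 (SE, edgeR adjusted p = 0.0136). The starved replicates differed from each other there, and with the called length as offset the difference was 0.016. On chromosome 6 (20832420 to 20834645) Kcr had 246 and 273 tags in starved and 66 and 120 in control seedlings, and on chromosome 12 (27159167 to 27160802) it had 188 and 230 in starved and 77 and 70 in control seedlings. The log2 differences were 1.25 and 1.24. The 2 falls of Kcr were in regions that also fell in Kbu by the edgeR test. The Kcr differences were −0.99 on chromosome 7 (from 22361079) and −0.44 on chromosome 8 (25703393 to 25706421), the latter with an edgeR adjusted p of 0.042. The call on chromosome 8 was lost in each of the 9 alternatives run, with adjusted p between 0.068 and 0.33.

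Submergence shares its control libraries with starvation, so the values of the 2 treatments are given side by side and not compared through those controls. Under submergence Kbu rose in 45 (11.3%) of the same 397 regions and fell in 14 (3.53%) by the edgeR test, beside 4.92% and 5.22% of all regions tested. Kcr rose in 15 (3.91%) of 384 and fell in 2 (0.521%), beside 1.41% and 0.931%. The median log2 difference from control was 0.16 for Kbu and 0.18 for Kcr in the dark-gained regions, and 0.20 and 0.25 in the other regions without a control H3K9ac peak, where 10.6% and 3.66% rose. With the tags used by MACS as library sizes the median of Kbu was −0.013 in the dark-gained regions and −0.17 in all regions, with 26 higher and 34 lower, so the direction of the Kbu change under submergence depended on the scaling. On either scale the dark-gained regions lay 0.16 above the median of all regions. A 1.5-fold change in both same-numbered replicates was upward for Kbu in 6 dark-gained regions (1.51%) and downward in 6 (1.51%), beside 0.407% and 2.47% of all regions tested. For Kcr it was upward in 9 (2.34%) and downward in 2 (0.521%), beside 0.908% and 1.03%.

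Leaving out single libraries moved these counts as well. Higher Kbu was called in 38 regions without control replicate 1, 10 without control replicate 2, 12 without submerged replicate 1 and 13 without submerged replicate 2, and lower Kbu in 9, 11, 5 and 3 in the same order. Higher Kcr was called in 5, 11, 1 and 3 regions in the same order, and lower Kcr in 1, 3, 0 and 2.

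New acyl peaks under submergence are given as a description only. A region is listed because some seedling library had a peak there, and this can be the submerged acyl peak itself. Each dark-gained region was already listed through its starved H3K9ac peaks, so its share and that of all such regions are not alike in origin. Of the 323 dark-gained regions without a control Kbu peak, 51 (15.8%) had Kbu peaks in both submerged libraries, beside 19.7% of all such regions. Of the 309 without a control Kcr peak, 39 (12.6%) had Kcr peaks in both submerged libraries, beside 22.5% of all such regions. Peaks held in both control libraries were absent from both submerged libraries in 6 of 422 regions (1.42%) for Kbu and 7 of 410 (1.71%) for Kcr, beside 1.46% and 1.08% of all such regions and 4.67% and 2.84% of those without a control H3K9ac peak.

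H3K9ac itself was called under submergence in many of the dark-gained regions. Both submerged libraries had a peak in 285 regions (34.3%), 1 had a peak in 147, and neither had one in 398. Of the 15101 regions without control H3K9ac, which include the dark-gained ones, 863 (5.71%) had a peak in both. Counted singly, submerged replicate 1 had a peak in 317 dark-gained regions and submerged replicate 2 in 400. In the 285 regions the median was 11.4 and 11.1 RPM in the starved replicates and 9.79 and 9.87 in the submerged replicates. H3K9ac was higher in the starved library of both same-numbered pairs in 145 of them and in the submerged library of both in 87. The starved peaks were used to choose the regions, which favours the starved side, so these values are a description only. The choice also required no peak in the control libraries that both treatments share. How far peaks missed in control gave calls under both treatments was not tested. The 398 regions without a submerged peak were weaker in darkness too, with medians of 7.46 and 7.56 RPM.

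The share with submerged H3K9ac was 49.7% (183 of 368) in dark-gained regions with Kbu and Kcr in both control libraries, beside 8.51% of the other regions without control H3K9ac that carried the same marks. It was 15.7% (44 of 280) in dark-gained regions with neither mark, beside 1.48% of the other regions without control H3K9ac with neither mark. The intermediate classes had 25.9% (14 of 54) with only Kbu in both control libraries, 35.7% (15 of 42) with only Kcr in both and 33.7% (29 of 86) with neither in both, beside 3.23%, 2.10% and 1.57% of the other regions. The difference between the classes was not tested. The highest submerged values were in broad domains. The region on chromosome 1 from 31406831 had 117 and 115 RPM in starved and 128 and 119 in submerged seedlings, and the region on chromosome 7 from 24346541 had 108 and 117 in starved and 96.4 and 95.4 in submerged seedlings. The regions on chromosome 4 (30937094 to 30943948), chromosome 5 from 1659476 and chromosome 7 (29114438 to 29119897) completed the 5 highest, with submerged values between 71.1 and 97.8.

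The 280 dark-gained regions without any control Kbu or Kcr peak divided by what they gained. In 44 of them Kbu and Kcr peaks were called in all 4 starved Kbu and Kcr libraries, and in 177 none was called in any of them. Over all 830 regions, 166 (20.0%) had no Kbu or Kcr peak in any of the 12 seedling libraries of these marks. A group of 80 regions (9.64%) had H3K9ac peaks in the 2 starved libraries and no peak of any mark in the other seedling libraries with an antibody or in the 8 leaf libraries. These counts are given for the dark-gained regions only, so whether other regions divide in the same way was not tested.

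Among the 280 unmarked regions, the highest starved H3K9ac RPM was in a region on chromosome 5 (24441788 to 24448814). This region was 7027 bp long and lay next to a marked dark-gained region that starts at 24449068. Its enrichment of 4.24-fold and 4.19-fold in the starved replicates lay below the medians of the 280, which were 6.04-fold and 5.9-fold. It had 425 and 466 H3K9ac tags in starved seedlings and none listed in submerged seedlings. Kbu had 350 and 573 tags in starved and 358 and 429 in submerged seedlings, and Kcr had 378 and 707 in starved and 325 and 251 in submerged seedlings, with no listed peak in the control libraries of either mark. Both treatments thus had Kbu and Kcr calls where the control had none, and only darkness had H3K9ac calls among the seedlings, while the 8 leaf libraries had between 652 and 1597 tags.

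The other 4 of the 5 highest unmarked regions differed in their acyl peaks. On chromosome 10 (19338767 to 19341769) H3K9ac had 206 and 222 tags in starved and 91 and 99 in submerged seedlings. Kbu was listed there in starved replicate 2 only, with 104 tags, and Kcr in starved replicate 1 only, with 78 tags. On chromosome 8 (21727976 to 21731244) H3K9ac had 186 and 229 tags in starved seedlings, and the only acyl peak was Kcr in starved replicate 2, with 364 tags. Neither region had a leaf peak. On chromosome 10 (19135499 to 19140774), in contrast, Kbu had 282 and 180 tags in starved and 107 and 140 in submerged seedlings, and Kcr had 334 and 642 in starved and 150 and 130 in submerged seedlings. On chromosome 2 (696052 to 701820) Kbu had 173 and 278 tags in starved seedlings and 75 in submerged replicate 2 only, and Kcr had 191 in starved replicate 1 only and 136 and 110 in submerged seedlings.

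In untreated leaves of 30-day-old plants, H3K9ac peaks were present in many dark-gained regions without any treatment. Each leaf peak, with all its tags, was counted only in the seedling region with which it shared most bases. A region that it overlapped less counts as without that peak. All 8 leaf libraries had a peak in 175 regions (21.1%), against 3.30% of the regions without control H3K9ac and 46.8% of all regions. No leaf library had a peak in 350 (42.2%), against 78.8% of the regions without control H3K9ac and 34.8% of all regions. Both libraries of a time point had a peak in 307 dark-gained regions at ZT0 (37.0%), 269 at ZT6 (32.4%), 314 at ZT12 (37.8%) and 276 at ZT18 (33.3%). The shares in the same order were 52.9%, 52.1%, 56.7% and 52.7% of all regions. They were 7.42%, 7.75%, 9.88% and 6.85% of the regions without control H3K9ac. ZT12, the clock time of the seedling harvest, had the highest share in each of these sets. A further 93 dark-gained regions had a leaf peak at another time and none at ZT12. No leaf peak was called in 58.6% of the regions without control acyl marks and in 32.9% of those with both marks. A total of 216 dark-gained regions (26.0%) had no H3K9ac peak in any submerged or leaf library. Age and growth differ between the leaf and seedling libraries and cannot be told apart.

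Over the 4 leaf times, H3K9ac changed in 76 (43.4%) of the 175 dark-gained regions with a peak in all 8 libraries, by the edgeR F-test with Benjamini-Hochberg adjustment over 17830 regions. The share was 35.9% over all regions tested and 54.6% in the 324 other regions without a control H3K9ac peak. Among the 76, H3K9ac was highest at ZT6 in 41 (53.9%), at ZT0 in 16, at ZT18 in 10 and at ZT12 in 9. It was lowest at ZT12 in 31 (40.8%). Of all 6399 regions that passed the F-test, 32.3% were highest at ZT6 and 23.5% were lowest at ZT12. The number that passed was 52 without ZT12 replicate 1 and 55 without ZT12 replicate 2, and lay between 64 and 84 without any 1 of the other libraries.

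**Figure D5:**
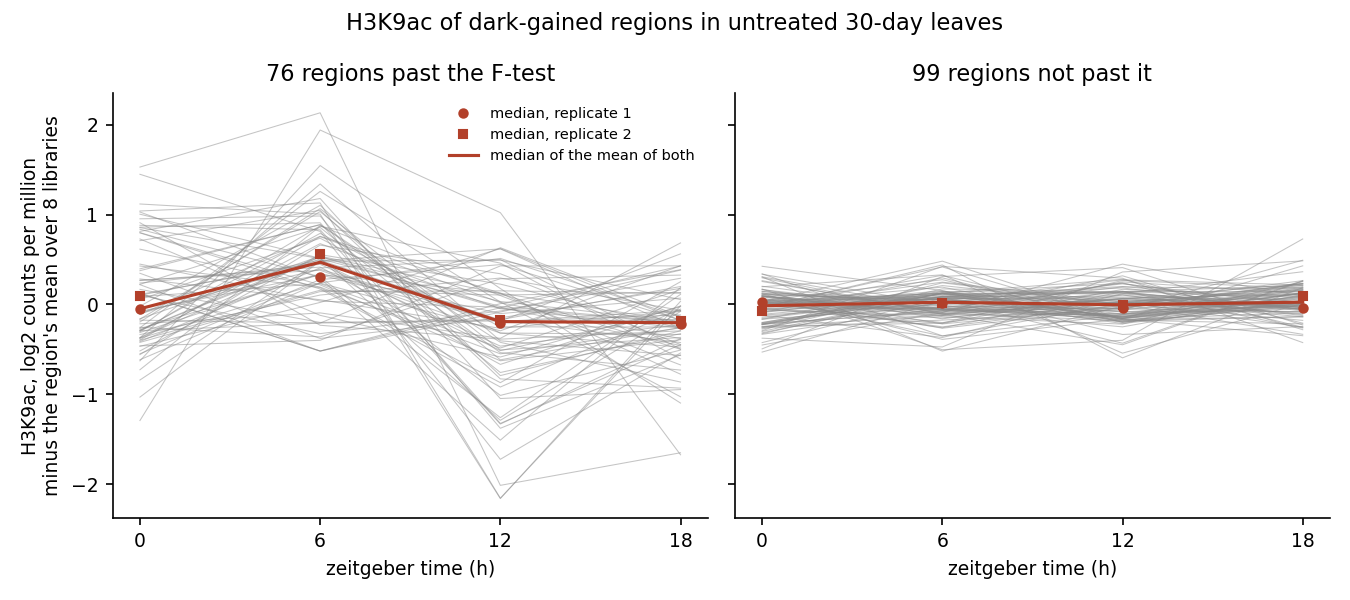
H3K9ac in untreated 30-day-old leaves at ZT0, ZT6, ZT12 and ZT18, as log2 CPM minus the mean of the region over 8 libraries, for the 76 dark-gained regions past the edgeR F-test and the 99 not past it. Grey lines are regions (mean of 2 libraries), symbols are the median of each replicate and the red line is the median over regions, which among the 76 stands at 0.47 at ZT6 and at −0.19 and −0.20 at ZT12 and ZT18.

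At ZT18, during the night, H3K9ac was lower than at ZT6 in 45 (25.7%) of the 175 regions and higher in 11 (6.29%) by the edgeR test, beside 11.8% and 8.88% of all regions tested. The 324 other regions without a control H3K9ac peak had similar shares, with 23.5% lower and 8.95% higher. The median log2 difference was −0.13 in the dark-gained regions, beside −0.12 in those other regions and 0.0018 in all regions. Lower H3K9ac at ZT18 was called in 51 regions without ZT6 replicate 1, 26 without ZT6 replicate 2, 25 without ZT18 replicate 1 and 32 without the shallow ZT18 replicate 2, and higher H3K9ac in 10, 11, 2 and 8 in the same order. With the called length as an offset, 14 were lower and 6 higher, and the median difference was 0.064, beside 0.16 in all regions. Between ZT0 and ZT12, 34 regions (19.4%) were higher at ZT0 and 26 (14.9%) lower, beside 12.5% and 17.3% of all regions. The shares were 17.9% and 24.1% in the 324 other regions without a control H3K9ac peak. For this contrast, leaving out 1 library gave 25 higher and 10 lower without ZT0 replicate 1, 23 and 10 without ZT0 replicate 2, 21 and 7 without ZT12 replicate 1, and 21 and 10 without ZT12 replicate 2.

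Single dark-gained regions had far more H3K9ac in leaves at some hours than in starved seedlings. On chromosome 6 (31028074 to 31029163) H3K9ac was 109 and 123 RPM at ZT0, 177 and 190 at ZT6, 9.90 and 11.5 at ZT12 and 13.4 and 12.7 at ZT18, the smallest p of the 175 regions (edgeR F-test adjusted p = 1.11e-05). In starved seedlings it had 7.46 and 7.41 RPM, with scores of 52.2 and 59.96, close to the limit of the caller. The replicates of each time point lay close together, and ZT12 had the lowest values. At ZT18 against ZT6 its log2 difference was −3.79 ± 0.18 (SE, edgeR adjusted p = 5.07e-05).

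The other 4 regions with the smallest F-test p were also lowest at ZT12. A region on chromosome 3 (22123019 to 22124502) had 85.8 and 97.5 RPM at ZT0, 57.5 and 65.1 at ZT6, 10.8 and 11.0 at ZT12 and 23.8 and 23.3 at ZT18. A region on chromosome 9 (12591541 to 12593515) had 33.8 and 51.0 at ZT0, 44.9 and 46.8 at ZT6, 5.22 and 4.46 at ZT12 and 19.5 and 21.3 at ZT18. The groups at ZT0, ZT6 and ZT18 did not overlap with ZT12 in either region. The remaining regions were on chromosome 8 (4315783 to 4319041) and chromosome 5 (2785612 to 2786896), with ZT12 values of 8.46 and 9.72 and of 11.0 and 10.9, below each of their 6 other leaf values. The 2 regions with the largest rises of Kbu in darkness had fewer leaf H3K9ac tags at ZT12 than at ZT0. The region on chromosome 4 from 22181507 had 870 and 2010 tags at ZT0 and 47 tags and no listed peak at ZT12. The region on chromosome 11 from 17298248 had 402 and 1066 tags at ZT0 and 133 and 179 at ZT12.

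The largest night-time differences were falls. On chromosome 3 (29984412 to 29985462) H3K9ac had 5.18 and 14.4 RPM at ZT0, 48.6 and 149 at ZT6, 45.7 and 47.7 at ZT12 and 5.91 and 7.78 at ZT18, a log2 difference of −3.94 ± 0.62 between ZT18 and ZT6 (SE, edgeR adjusted p = 0.00286). Its ZT6 replicates differed widely, and both stood above both ZT18 values. On chromosome 3 (30773245 to 30775444) the values were 6.96 and 5.41 at ZT18 and 32.9 and 47.0 at ZT6, a log2 difference of −2.65 ± 0.25 (SE, edgeR adjusted p = 0.000278). The 3 largest rises at ZT18 were smaller. They were 1.22 ± 0.37 on chromosome 7 (12179863 to 12181062), 0.94 ± 0.17 on chromosome 7 (14814250 to 14816076) and 0.92 ± 0.20 on chromosome 1 (24903720 to 24905313). Their adjusted p were 0.0485, 0.0051 and 0.012 in the same order (SE, edgeR). The first of these also had a peak in the input library.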

How the data were processed

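Chromatin of the libraries was sequenced by the authors, who mapped reads to MSU7.0 with Bowtie2 (2.2.5), removed duplicates with SAMtools (0.1.19) and called peaks with MACS 1.4.2 at a p of 1.00e-05 without a control file. The tag counts are raw counts per peak as deposited, the fold enrichment deposited is a ratio over the local background (10000 bp), and the score deposited is 10 times −log10 of p. The 27 lists were merged and counted in Python 3.11.15 with numpy 2.4.6 and pandas 2.3.3. Tags of peaks were summed per region, and leaf peaks were given to the seedling region with which they shared most bases. Tests were made in R 4.3.3 with edgeR 4.0.16 (TMM, quasi-likelihood), over regions listed in every library of the fit, and DESeq2 1.42.0 served as an alternative. The SE is the log2 difference divided by the root of F. Counting error of a region follows its tag number.

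The regions and lists were chosen with earlier results of these data known. Named regions were the 10 with the highest starved H3K9ac, the 5 largest rises and falls of Kbu and of Kcr in darkness at an adjusted p under 0.05 and in 1 direction in both replicate pairs, the 5 smallest leaf F-test p, the 3 largest changes each way between ZT18 and ZT6, the 5 highest without control acyl marks, the 5 highest under submergence and the 5 just inside the rule, with the 5 highest scores added after the values were seen. Sequences, gene names and motifs of this assembly were not used here, nor were RNA-seq data. The edgeR steps were tested on simulated data.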

Additional observations from a re-analysis of the deposited data

Results flagged for a closer look

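The input library, which no comparison used, had a called peak in 7 of the 830 dark-gained regions (0.843%), beside 248 of all 38058 regions (0.652%). The input held more tags than either starved H3K9ac library in 6 of the 7. On chromosome 8 (22321359 to 22326491) the input had 7385 tags and the starved H3K9ac replicates 54 and 65, and on chromosome 5 (915184 to 916628) it had 1167 tags against 61 and 72. The seventh, on chromosome 9 (10622651 to 10630793), had 615 and 678 H3K9ac tags in the starved libraries and 134 in the input. With 2 libraries in each group no library could be tested as standing apart from its group.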

How the results depend on the processing

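Of 158 alternatives run on the counts and shares of dark-gained regions, 88 stayed within the limits set for a change and 70 moved. For the 28 named regions with a test, 229 of 272 alternatives kept direction and side of the threshold, 39 lost the threshold and 4 reversed, all 4 with the called length as offset: Kbu in darkness on chromosomes 6 (0.042), 7 (0.088) and 8 (0.19), and Kcr on chromosome 7 (0.11). Where a library was left out, 1 library of its group remained and was assumed to vary like the other groups. Leaving out 1 library gave 57 to 68 higher and 16 to 35 lower Kbu in darkness, 10 to 38 and 3 to 11 under submergence, 5 to 10 and 0 to 3 for Kcr in darkness, and 1 to 11 and 0 to 3 under submergence. In leaves it gave 52 to 84 by the F-test, 2 to 11 higher and 25 to 51 lower at ZT18 against ZT6, and 21 to 25 higher and 7 to 10 lower at ZT0 against ZT12. Control marking was 47.3% to 53.6%, the dark-gained regions numbered 1037 to 1187, and those with submerged H3K9ac 317 to 400.

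DESeq2 gave 42 higher and 14 lower Kbu in darkness, 11 and 4 under submergence, and 20 higher and 1 lower Kcr in darkness. MACS tags as library sizes gave 19 lower Kbu in darkness, 26 higher and 34 lower Kbu under submergence, 60 higher Kcr in darkness and 4 lower Kcr under submergence. The called length as offset gave 10 lower Kbu in darkness, 195 higher and 0 lower Kbu under submergence, 14 higher Kcr in darkness, 1 higher and 0 lower Kcr under submergence, and in leaves 46 by the F-test, 6 higher and 14 lower at ZT18, and 20 higher and 5 lower at ZT0. Regions with a peak in at least 2 libraries gave 14 lower Kbu in darkness, 6 lower Kbu under submergence, 1 lower Kcr in darkness and 22 higher at ZT18. A 1.5-fold change in both replicate pairs gave 56 higher and 5 lower Kbu in darkness, 6 and 6 under submergence, 1 lower Kcr in darkness and 9 higher Kcr under submergence. Without regions of 4000 bp or more, chosen after seeing the data, 1 lower Kcr remained under each treatment. The cause of these changes was not tested.

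With the replicate number as a block, 16 regions were higher in Kcr in darkness and 9 under submergence, and the other counts stayed within 1.5 times, with 114 higher and 38 lower Kbu in darkness. The labels do not state that numbers pair the libraries, and the correlations of same-numbered deviations were between −0.17 and 0.25.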
